A study of Arabidopsis thaliana with 6 samples.

Results

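Of 12804 Arabidopsis thaliana probe sets bright enough to use, 144 (1.12%) gave a clearly higher signal on the replicate 3 arrays than on the replicate 1 arrays of both genotypes studied. They were chosen by that difference: on the log2(signal + 10) scale, replicate 3 exceeds replicate 1 by more than a threshold of 2.38-fold in the pad4 est1b double mutant and also in pad4. The mean signal over the 6 arrays had to reach 20, and genes encoded in the chloroplast or the mitochondrion (3 that met the rule) and 4 named probe sets for cold-regulated genes (2 of which met it) were left out. Of the 144 members, 75 have 1 gene listed for the array, 5 have several and 64 have none, and all 75 genes lie on nuclear chromosomes.

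The study compared total RNA from leaves of the double mutant, which carries pad4-1 and est1b-1 (labelled SALK_073354), with RNA from pad4-1 plants, so the pad4-1 mutation is shared by both groups and no wild type is used here. Each group has 3 Affymetrix ATH1 arrays, numbered 1 to 3, from soil-grown plants of the Col background kept at 22 °C and 70% humidity before harvest. A stratification of 24 h is given for every sample. PAD4 resembles lipases and drives salicylic acid defence, while EST1B takes part in the decay of mRNAs with early stop codons. The 3 double mutant arrays and pad4 replicate 1 are labelled as developed rosette leaves with a stage of 5.10 weeks, and pad4 replicates 2 and 3 as leaves with a stage of 3.90 weeks; neither the number of plants behind a sample nor separate cultures are stated, so the spread between samples may be technical.

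Several of the members belong to the response of plants to iron shortage. In that response small peptides of the IRON MAN family protect transcription factors from degradation, and these factors switch on a group of related basic helix-loop-helix proteins that raise iron uptake and redistribution. Others encode short secreted or membrane proteins linked to defence, such as thionins and defensin-like proteins, which disturb the membranes of microbes. Still others belong to redox control by glutaredoxins, to calcium sensing by EF-hand proteins, or to the circadian clock and its links to cold.

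In the double mutant 265 of the 12804 probe sets (2.07%) lay over this threshold, in pad4 641 (5.01%), and in both 149 (1.16%) before the exclusions. On the log2(signal + 10) scale, the median difference of the 144 members was 1.55 in the double mutant, with a range from 1.254 to 4.84, and 1.68 in pad4, with a range from 1.27 to 4.90. Over all probe sets kept it was -0.07 in the double mutant and -0.26 in pad4, so the members stand against arrays whose typical signal was a little lower in replicate 3. In 93 members the difference was the larger in pad4 and in 51 it was the larger in the double mutant. Only 19 members exceeded a difference of 2 in both genotypes. These values are the ones that chose the members and are given as description.

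**Figure D1:**
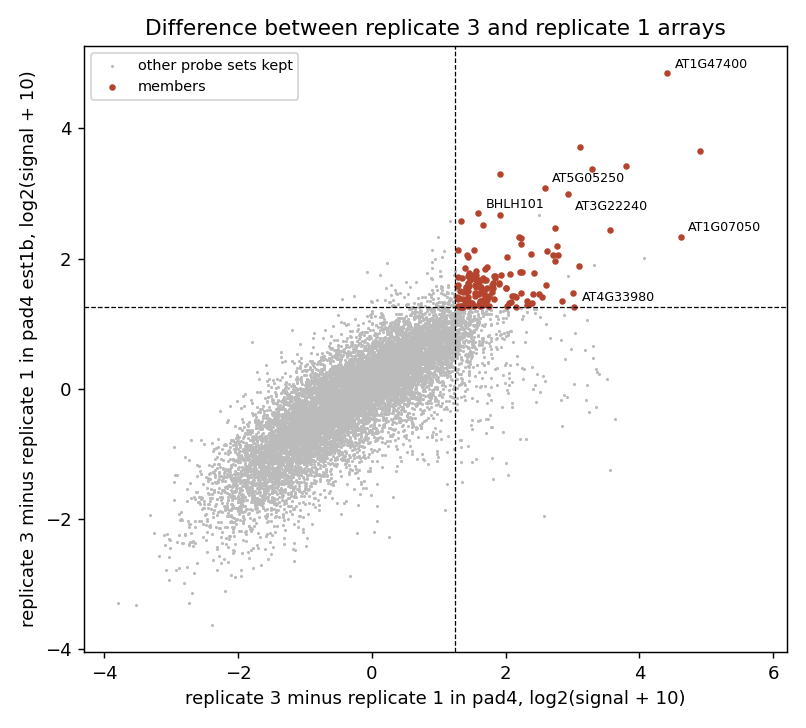
Replicate 3 minus replicate 1 on the log2(signal + 10) scale for the 12804 probe sets kept, with pad4 on the horizontal axis and the double mutant on the vertical axis. Red points are the 144 members, dashed lines mark the threshold, and the 5 grey points past both lines are the organelle genes and named probe sets that were left out.

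The mean signal of the members over the 6 arrays had a median of 221 units, against 90.07 over all probe sets kept. That mean includes the replicate 3 arrays, on which the members were chosen to be high. Of the members, 16 averaged over 1000. The median member signal in replicates 3, 2 and 1 was 363, 143 and 115 in the double mutant and 378, 129 and 101 in pad4. Replicate 2 therefore lay close to replicate 1 in both genotypes. Over all probe sets kept the medians in the same order were 83.5, 85.4 and 98.3 in the double mutant and 70.6, 87.8 and 95.3 in pad4. In replicate 1 the members were little brighter than the rest. The rule also used replicate 1, where a low signal favours being chosen, so this is description only. In 118 of the 144 members all 6 arrays were at 20 units or more. In 9 members all 4 arrays of replicates 1 and 2 were under 20, so these passed the filter through replicate 3 alone.

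**Figure D2:**
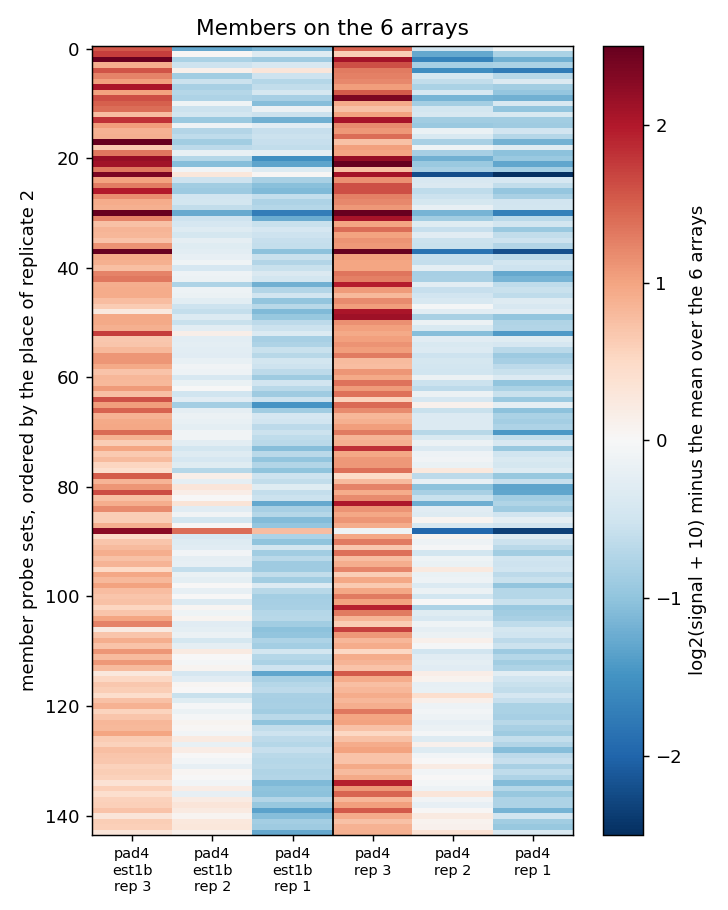
The 144 members on the 6 arrays, as log2(signal + 10) minus each member's mean over the arrays, with red above and blue below that mean. The 2 replicate 3 columns are the red ones, and replicate 2 is paler than replicate 1 for most members. The row with the plainest red on all 3 double mutant arrays is 250476_at. Others, such as AT1G07050, are only faintly above their mean on double mutant replicates 2 and 1.

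Ranked by the smaller of the differences in both genotypes, AT1G47400, which encodes the IRON MAN peptide IMA1, came first among the members with 1 gene. Its signal was 388, 9.19 and 3.86 units in double mutant replicates 3, 2 and 1, against 297, 10.5 and 4.38 in pad4 replicates 3, 2 and 1. The 4 arrays of replicates 1 and 2 lay under the filter of 20 units, and both replicate 3 arrays were far above it. On the offset scale the difference was 4.84 in the double mutant and 4.42 in pad4. BHLH101, one of the helix-loop-helix transcription factors of the iron response, had 76.7, 2.24 and 3.36 units in double mutant replicates 3, 2 and 1, against 72.5, 11.3 and 17.42 in pad4. Again only the replicate 3 arrays were above 20, and replicate 2 was the lowest array of each genotype.

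AT5G05250, a gene of unknown function known to respond to iron shortage, gave the same pattern at a measurable baseline. It had 306, 32.7 and 27.1 units in double mutant replicates 3, 2 and 1, against 234, 41.3 and 30.7 in pad4. Replicates 1 and 2 were alike in both genotypes and replicate 3 stood alone. AT3G56360, another gene reported to respond to iron shortage, had 2104, 1200 and 784 units in double mutant replicates 3, 2 and 1, against 3200, 1056 and 711 in pad4. Here replicate 2 took an intermediate place, nearer to replicate 1.

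The iron genes as a group were listed after these members had been seen, so their count supports nothing by itself. Of 25 genes of the iron deficiency response listed from general knowledge, 10 are named by a probe set of their own, 7 were bright enough to keep and 4 were members. PYE, a transcription factor of the same response, had a difference of 1.00 in the double mutant and 0.54 in pad4, under the threshold. AT3G07720 had 0.09 and 0.24, and BGLU42, a root-expressed glucosidase, had 0.00 in the double mutant and -0.98 in pad4. None of 8 genes for iron storage and vacuolar transport is named by a probe set of its own, so the ferritins are not analysed here.

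Genes of defence and small cysteine-rich proteins included some of the brightest members. AT3G22240, of the family of the small pathogen-responsive protein PCC1, had 5798, 868 and 717 units in double mutant replicates 3, 2 and 1, against 6939, 897 and 899 in pad4. Replicates 1 and 2 differed little and replicate 3 was high in both genotypes. AT1G66100, a thionin-family gene and the brightest member, had 5755, 3124 and 2408 units in the double mutant, against 8042, 4316 and 3231 in pad4. It lies just inside the threshold. AT2G43550, a defensin-like gene, had 1820, 1014 and 751 units in double mutant replicates 3, 2 and 1, against 2682, 1119 and 922 in pad4.

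Within this group the difference between replicates 3 and 1 departed most between the genotypes in AT5G03350 and THI2.2, where it was larger in pad4 by 1.21 and 0.97. AT5G03350, a legume-lectin-like gene of systemic acquired resistance, had 635, 252 and 164 units in double mutant replicates 3, 2 and 1, against 1441, 181 and 159 in pad4. THI2.2, a thionin, had 225, 120 and 82.1 units in the double mutant, against 802, 152 and 152 in pad4. For both genes pad4 replicate 3 was more than 2 times as high as any other array. The other pad4 arrays lay within the range of the double mutant for THI2.2, and for AT5G03350 pad4 replicate 1 was just below it. AT1G55210, a dirigent protein gene, had a difference of 1.37 in the double mutant and 1.82 in pad4.

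**Figure D3:**
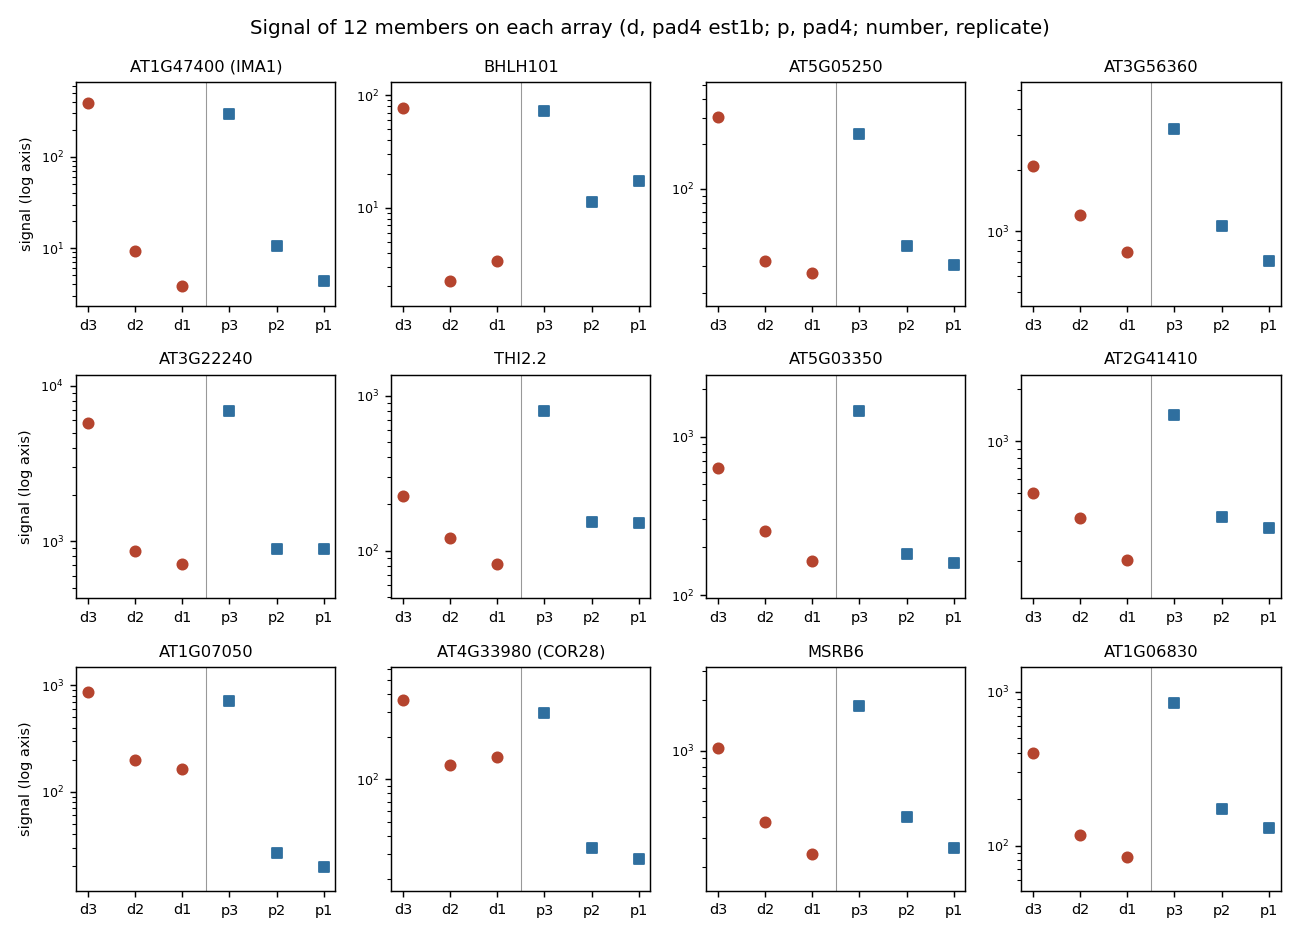
Signal of 12 members on each of the 6 arrays, on log axes. Red circles are the double mutant (d) and blue squares pad4 (p), with the replicate number behind the letter. In every panel the replicate 3 array is the highest of its genotype. In AT1G07050 and COR28 the double mutant replicates 1 and 2 lie well above those of pad4.

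In the 3 members grouped here under the clock and cold, the genotypes were close in replicate 3 and further apart in the other arrays. AT1G07050 encodes a protein with the CCT domain found in several regulators of flowering and the clock. It had 866, 198 and 163 units in double mutant replicates 3, 2 and 1, against 717, 26.6 and 19.6 in pad4. COR28 (AT4G33980), a cold-induced gene that acts in the clock, had 361, 126 and 145 units in the double mutant, against 296, 32.8 and 27.5 in pad4. The difference between replicates 3 and 1 was 2.34 in the double mutant and 4.62 in pad4 for AT1G07050. For COR28 it was 1.26 and 3.03. AT4G30650, of the small hydrophobic low-temperature and salt responsive proteins, had 4598, 2640 and 1727 units in double mutant replicates 3, 2 and 1, against 5005, 1036 and 845 in pad4. The gap between the genotypes on the arrays of replicates 1 and 2 has the same direction in all 3 genes.

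The other genes of these pathways had values of both signs. Of 12 listed evening genes of the clock, 3 could be read: COR28, COR27 with a replicate difference of 2.01 in the double mutant and 4.08 in pad4, and GI, an evening regulator of flowering, with -1.27 and -1.24. COR27 is among the probe sets left out by name. Of 27 listed cold and drought genes 5 could be read, and 3 of these, COR15A, COR15B and COR47, are also left out by name and so could not be members. COR15A had 1.90 in the double mutant and 3.31 in pad4, which met the threshold. COR15B had 1.12 in the double mutant and 2.26 in pad4, and COR47, a dehydrin, had -1.34 and -0.46. ZAT10, a zinc finger repressor, had -0.56 in the double mutant and 2.85 in pad4, and LTI30, another dehydrin, had -0.28 and 1.95. On the replicate 3 arrays ZAT10 had 282 units in the double mutant against 1289 in pad4, LTI30 537 against 848, and GI 207 against 148. There the genotypes were close for COR27 (529 against 547), COR15A (2384 against 2613), COR15B (2858 against 2883) and COR47 (954 against 941).

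Redox genes formed a further set. MSRB6, a methionine sulfoxide reductase that repairs oxidised proteins, had 1034, 373 and 240 units in double mutant replicates 3, 2 and 1, against 1860, 400 and 261 in pad4. AT1G06830, a glutaredoxin gene, had 402, 118 and 84.6 units in the double mutant, against 848, 173 and 130 in pad4. In both genes replicate 2 lay above replicate 1 but nearer to it than to replicate 3, and pad4 replicate 3 was the highest array. AT4G15660, another glutaredoxin gene, had a difference of 1.39 in the double mutant and 1.72 in pad4.

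The calcium-binding members were AT2G41090 (CML10), AT2G41410 (CML35) and the EF-hand gene AT2G44310. CML10, a calmodulin-like sensor, had 2677, 868 and 972 units in double mutant replicates 3, 2 and 1, against 3090, 1299 and 1036 in pad4. CML35 had 502, 358 and 204 units in the double mutant, against 1424, 361 and 313 in pad4. Its replicate 2 lay past the midpoint towards replicate 3 in the double mutant and next to replicate 1 in pad4. AT2G44310 had a difference of 1.499 in the double mutant and 1.44 in pad4.

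Members with roles in the assembly of the photosynthetic machinery included nuclear genes for chloroplast factors. CCB3, which helps to attach haem in the cytochrome b6f complex, had 486, 163 and 104 units in double mutant replicates 3, 2 and 1, against 317, 185 and 124 in pad4. AT3G04550, a rubisco accumulation factor, had 1023, 511 and 397 units in the double mutant, against 799, 398 and 249 in pad4. AT2G28605, with the domain of the photosystem protein PsbP, had a difference of 1.64 in the double mutant and 1.61 in pad4. Listed genes of photosynthesis gave 0 members: of 44 listed nuclear genes 8 could be read, with a median difference of 0.29 in the double mutant and 0.23 in pad4.

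Small proteins of general cell machinery were also present. ARLA1C, an Arf-like small GTPase, had 303, 213 and 65.0 units in double mutant replicates 3, 2 and 1, against 542, 185 and 74.6 in pad4. Its replicate 2 lay well above replicate 1, at 0.76 of the distance to replicate 3 in the double mutant and 0.44 in pad4. ATG8D, a ubiquitin-like protein of autophagy, had a difference of 1.27 in the double mutant and 2.02 in pad4. AT2G18740, a core protein of splicing particles, had 1.28 and 1.75, and AT1G22520, a subunit of the complex that shapes mitochondrial inner membranes, 1.42 and 1.74. AT2G39390, which encodes a cytosolic ribosomal protein of the large subunit, had 1.26 in the double mutant and 1.35 in pad4, near the threshold.

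Metabolic, transport and signalling genes made up the last of the groups formed by role. The copper amine oxidase gene AT1G31690 had 213, 58.6 and 43.7 units in double mutant replicates 3, 2 and 1, against 93.2, 17.8 and 28.6 in pad4. PMM, the phosphomannomutase that serves ascorbate and glycan synthesis, had a difference of 1.38 in the double mutant and 1.29 in pad4. GT72B1, a glucosyltransferase of phenolic compounds, had 1.51 and 1.68, the organic cation transporter OCT5 1.58 and 1.27, and the lipase-family gene AT1G75900 1.74 and 1.82. Among genes for CLE signalling peptides, CLE44, whose peptide controls vascular stem cells, had 1.85 in the double mutant and 1.39 in pad4, and CLE21 had 1.34 and 1.44.

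In all, 34 of the 75 genes fell into 9 such groups, which were formed with the values known, and 41 were left without one. Several of the largest differences belonged to genes without a role given here. AT1G19960 had 661, 120 and 114 units in double mutant replicates 3, 2 and 1, against 1118, 88.3 and 85.4 in pad4. AT1G17090 had a difference of 2.22 in the double mutant and 2.23 in pad4, and AT1G76960 had 2.19 and 2.78. In both genes double mutant replicate 1 and pad4 replicates 1 and 2 were under 20 units, so these differences depend on the offset. AT5G58570 and AT5G54970 had 1.79 and 1.76 in the double mutant and 2.25 and 2.07 in pad4. AT3G48490, AT2G31730, AT2G33180, AT2G19310 and AT1G66820 completed the 20 genes with the largest smaller-of-both difference, each between 1.61 and 1.90 in both genotypes. Of these AT2G31730 encodes a helix-loop-helix protein and AT2G19310 a protein related to small heat shock proteins.

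The probe sets without a listed gene held large values too. By the smaller of the differences in both genotypes the first was 267364_at, with 1149, 145 and 81.9 units in double mutant replicates 3, 2 and 1, against 1212, 42.2 and 30.9 in pad4. 256766_at had 4695, 513 and 429 units in the double mutant, against 6202, 563 and 437 in pad4. For 265837_at the values were 673, 82.1 and 42.0 units in the double mutant and 674, 56.0 and 69.4 in pad4. In each of these 3 both replicate 3 arrays were above the other 4 arrays.

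At the threshold the members shade into the rest without a gap. Just inside were AT1G66100, AT2G39390 and 251309_at, with smaller differences of 1.254, 1.257 and 1.260. Just outside were AT5G11070, AT5G40670 and 264926_at, with 1.247, 1.240 and 1.240.

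Replicate 2 took no part in the differences that chose the members. Its place was expressed as the share of the distance between replicate 1 (0) and replicate 3 (1). The median place over the 144 members was 0.29 in the double mutant, with quartiles of 0.17 and 0.43, and 0.21 in pad4, with quartiles of 0.096 and 0.33. Replicate 2 lay between the other arrays in 92.4% of members in the double mutant and 88.9% in pad4, against 50.5% and 64.1% of all probe sets kept; since the members have distant end points, this share is bound to be high. In 114 members it lay nearer to replicate 1 in both genotypes and in 4 nearer to replicate 3 in both, and in no member was it above replicate 3. The 4 were 267088_at, AT5G35480, 256438_s_at and AT5G02550, of which the last was dim.

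For 11 members replicate 2 was within 0.1 of replicate 1, or below it, in both genotypes. Of these, 5 have 1 gene: AT3G22240, AT1G19960, BHLH101, AT1G53035 and COR28. For probe sets that were lower in replicate 3 by the same distance, of which there were 863, the median place was 0.49 in the double mutant and 0.36 in pad4. Replicate 2 thus lay nearer to replicate 1 in the members than in that mirror set in both genotypes, without a test, since there is 1 array for each genotype and number. In the double mutant the 3 arrays share the stage label of 5.10 weeks. In pad4, replicate 1 is labelled 5.10 weeks and replicates 2 and 3 are labelled 3.90 weeks, so there the stage label and the distance between replicates 1 and 3 cannot be told apart.

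**Figure D4:**
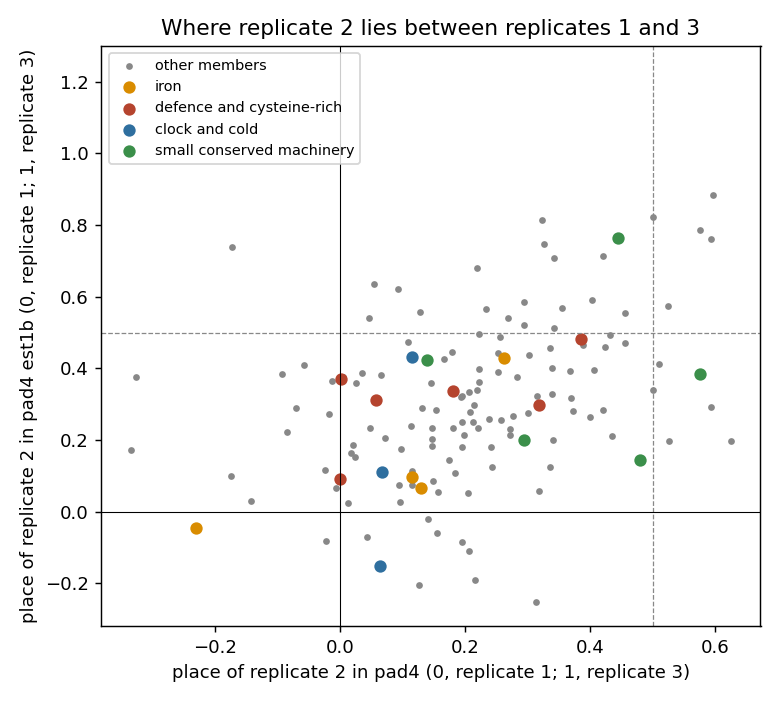
Place of replicate 2 between replicate 1 (0) and replicate 3 (1) for each of the 144 members, with pad4 on the horizontal axis and the double mutant on the vertical axis. Dashed lines mark the midpoint. Most points lie at the lower left, and those of the iron group other than AT3G56360 lie near or below 0.1.

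What the members share beyond the rule was short gene length. Gene length here is the span on the chromosome in the TAIR10.1 table, introns included. The 75 members with 1 gene had a median of 1288 base pairs, with quartiles of 914 and 1720, against 2322 base pairs, with quartiles of 1710 and 3212, for 6815 nuclear genes kept. The mirror set of probe sets lower in replicate 3 had a median of 3907 base pairs over 377 genes. Of the members 30.7% were shorter than 1000 base pairs, against 5.63% of the nuclear genes kept, and 7 of the 75 were longer than the median of those genes.

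The relation ran through all genes, which were split into 5 classes of nearly equal size by length. In the shortest class, from 78 to 1569 base pairs, 51 of 1363 probe sets (3.74%) were members, and in the longest class, from 3480 base pairs up, 1 of 1363 (0.0734%). The classes between held 13, 7 and 3 members from short to long. The median difference of replicate 3 minus replicate 1 over all nuclear genes of a class was 0.42, 0.23, 0.03, -0.21 and -0.73 in the double mutant from the shortest to the longest. In pad4 it was 0.65, 0.21, -0.17, -0.51 and -1.08. Across the 6815 genes, length and difference had a Spearman correlation of -0.52 in the double mutant and -0.62 in pad4; the genes share the same arrays, so this is a description.

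**Figure D5:**
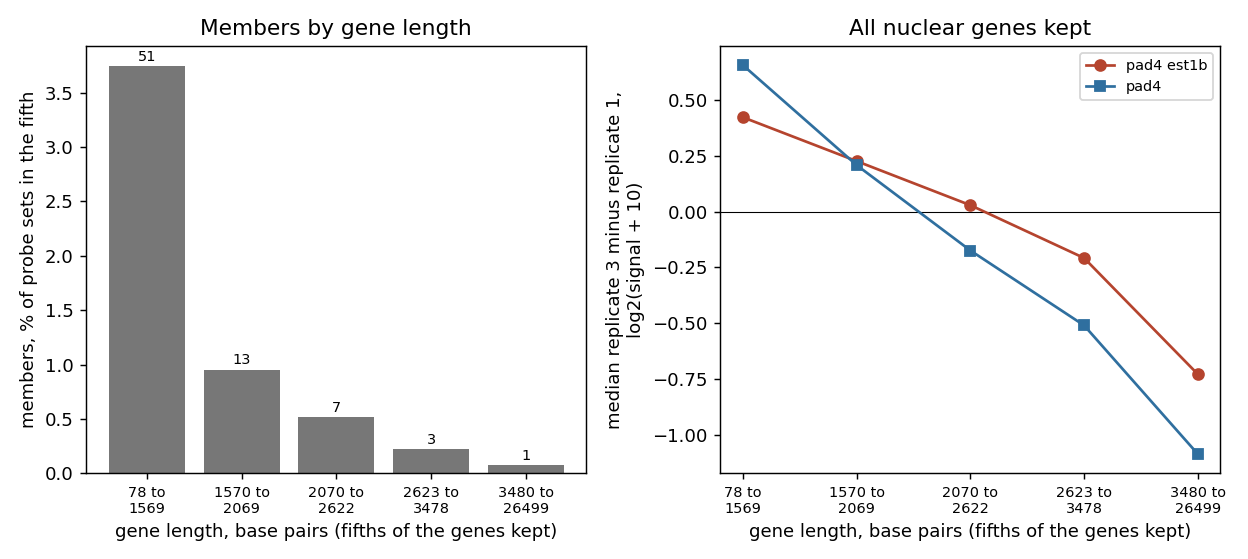
Left, the share of probe sets that are members in each of the 5 length classes, with the number of members above the bars. Right, the median of replicate 3 minus replicate 1 over all nuclear genes kept in each class, with the double mutant as red circles and pad4 as blue squares. Both fall from the shortest to the longest class, and the last class holds 1 member.

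Some other readings of the RNA also differed between replicate numbers, though not in the order of the members. The log2 ratio of 3' to 5' signal of the actin control was 1.97, 2.01 and 1.77 in double mutant replicates 3, 2 and 1, against 2.13, 2.12 and 1.503 in pad4. That of a GAPDH control was 1.53, 1.64 and 0.97 in the double mutant, against 1.86, 1.15 and 0.92 in pad4. A second GAPDH pair stayed between -0.08 and 0.08 on all 6 arrays. The 25S ribosomal RNA control gave 728, 1356 and 35.9 units in the double mutant and 248, 430 and 21.3 in pad4, with replicate 2 highest. In this control and in the actin ratio replicate 2 lay near or above replicate 3, whereas in most members it lay nearer to replicate 1. For the first GAPDH ratio replicate 2 lay above replicate 3 in the double mutant and nearer to replicate 1 in pad4. Replicate 1 was lowest in the first 2 ratios and in the ribosomal control in both genotypes, and the part of these readings in the members' values was not tested. The median signal of all probe sets per array lay between 21.2 and 31.6.

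Each member was also set against the median difference of its own length class, on the log2(signal + 10) scale. All class medians lie under the threshold, so the rule places every member above its class. These distances come from the values that chose the members and are given as description. AT1G47400 lay 4.42 above that median in the double mutant and 3.76 above it in pad4. AT5G05250 lay 2.67 and 1.93 above, and AT3G22240 2.58 and 2.28. AT1G31690, the 1 member in the longest class, lay 2.78 above the median of its class in the double mutant and 2.502 in pad4. COR28, with a gene of 2949 base pairs, lay 1.47 and 3.54 above. At the other end, AT1G66100 in the shortest class lay 0.83 and 0.66 above. Within the members, length and the place of replicate 2 had a Spearman correlation of -0.12 in the double mutant and -0.02 in pad4 over the 75 genes.

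Leaf identity could be checked with few markers. RCA, the mesophyll gene for rubisco activase, had 5685, 8105 and 6143 units in double mutant replicates 3, 2 and 1, against 4990, 6081 and 6817 in pad4. The root marker PYK10 was at 12.4 units or less on every array. Of 6 guard cell markers 2 could be read, FAMA with a replicate difference of -0.16 in the double mutant and -1.498 in pad4, and GC1 with 0.61 and 1.101. Markers listed for phloem, xylem, epidermis, and meristem and flower are not named by a probe set of their own and were not used. Over all 19 lists of pathway genes and markers other than those for iron, 25 of 180 genes could be read and COR28 was the 1 member; 4 of the 25 were left out by name, and 2 of these, COR15A and COR27, met the threshold. In whole leaves, fewer cells of a type and less RNA per cell cannot be told apart.

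The comparison for which the arrays were made, double mutant against pad4, does not depend on the difference that chose the members, because each group holds each replicate number once. In limma over all 12804 probe sets, 0 of the 144 members were called higher or lower at an adjusted p of 0.05, where 0.0391% of all probe sets were called higher and 0% lower. At an unadjusted p under 0.05 limma gave 1 member, beside 4.44% of all probe sets. The standard error of the members had a median of 0.55 on the log2 scale, against 0.32 over all probe sets kept, since arrays of 1 genotype had to differ for a member to be chosen; a low count is therefore no sign that the genotypes are alike. The log2 fold change of the members, double mutant over pad4, ran from -0.97 to 2.95 with a median of -0.03, beside 0.03 over all probe sets kept, and was positive in 63 members and negative in 81.

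The single member at an unadjusted p under 0.05 was 250476_at, for which no gene is listed. It had 433, 236 and 149 units in double mutant replicates 3, 2 and 1, against 76.0, 13.8 and 8.40 in pad4. All 3 double mutant arrays lay above all 3 pad4 arrays. The groups did not overlap, counting either direction, in 1 of the 144 members and in 9.81% of all probe sets. The rule asked for a wide distance between arrays within each genotype, which favours overlap, so this low count follows in part from the choice. The log2 fold change of 250476_at was 2.95 ± 0.61 (SE, n = 3 per group), with an adjusted p of 0.44 by limma. It passed once limma was adjusted for the mean 3'/5' ratio of both these controls, actin and GAPDH, (adjusted p = 0.00997), without both replicate 3 arrays (0.013) and without pad4 replicate 3 (0.043). It also passed with the replicate number as a block (adjusted p = 9.5e-04 by limma).

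The next smallest p-values belonged to AT3G26960, 266326_at, COR28, AT1G31690 and THI2.2, none of which passed. AT3G26960, of the Ole e 1 family of secreted proteins, averaged 148 ± 80.1 units in the double mutant (SD, n = 3), against 314 ± 224 in pad4, a log2 fold change of -0.96. For 266326_at the log2 fold change was -0.87, for AT1G31690 0.96 and for THI2.2 -0.97. COR28 averaged 211 ± 131 units in the double mutant (SD, n = 3), against 119 ± 153 in pad4, a log2 fold change of 1.33 ± 0.79 (SE). AT1G07050 averaged 409 ± 396 units in the double mutant (SD, n = 3), against 254 ± 400 in pad4, with 1.77 ± 1.18 (SE). The adjusted p by limma was 1.00 for each of these 6.

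Without both replicate 3 arrays, limma called 3 members higher in the double mutant, 250476_at, AT1G07050 and COR28, where 0.148% of all probe sets were called higher. AT1G07050 then had a log2 fold change of 2.53 ± 0.26 (SE) with an adjusted p of 0.013 by limma, and COR28 1.86 ± 0.25 (SE) with 0.046, with n = 2 per group. This fit rests on the replicate 1 arrays, which the choice of members also used, so it is not independent of that choice. For the iron genes the log2 fold change over all 6 arrays was 0.08 for AT1G47400, -0.59 for BHLH101, -0.01 for AT5G05250 and -0.09 for AT3G56360, with standard errors of 1.47, 0.80, 0.92 and 0.58.

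Between arrays of the same number the members leaned one way in replicate 3. There 41 members were higher and 103 lower in the double mutant, 28.5% against 60.3% of all probe sets kept. In replicate 2, 80 were higher and 64 lower in the double mutant, 55.6% against 49.2% of all probe sets kept. In replicate 1, 66 were higher and 78 lower, 45.8% against 49.3%. The median difference of double mutant minus pad4 over the members was -0.19 in replicate 3, 0.10 in replicate 2 and -0.03 in replicate 1. Over all probe sets kept it was 0.14, -0.01 and -0.00 in the same order. Each of these is a comparison of 1 array with 1 array and has no replicate check. The values of replicates 3 and 1 also chose the members. Over all probe sets, 5.01% passed the threshold in pad4 and 2.07% in the double mutant. The lean in replicate 3 is therefore not independent of that choice and is given as description.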

How the data were processed

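Each array's deposited column holds linear probe set intensities, called signals here. The submitters' processing notes name MAS5 and GCOS. For versions, settings, detection calls and genome build, the entry is: not given in the sources used here. Per the values deposited by the authors, the signals of each array average 100.0 once 2% is trimmed from either end. Sample titles gave the groups and the replicate numbers. Genes were named through the platform annotation and the TAIR10.1 gene table, and only for probe sets with 1 gene.

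An offset of 10 units was added before log2, and 1.25 was the threshold for the difference between replicates. Control probe sets (64 of 22810) and those with a mean signal under 20 were left out. The genotype comparison used limma 3.58.1 (R 4.3.3), two-sided, without covariates; p-values were adjusted after Benjamini and Hochberg across the 12804 probe sets, and 0.05 was the threshold. Its code was run on simulated data with independent noise on each array. Those data lack any movement shared by same-numbered arrays, so they do not test the fit under it. The number of arrays, 3 per group, limits the precision. Python 3.11.15 with pandas 2.3.3, numpy 2.4.6 and matplotlib 3.10.9 served for tables and plots.

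The members and all gene lists were chosen with earlier results of these data known; the iron lists and the role groups were made after the members' values had been seen. In all, 19 lists with 180 loci were set, of which 29 loci have a probe set of their own and 25 were kept. Members named are the 20 with 1 gene and the largest smaller-of-both difference, those on a list or in a role group, the 6 smallest p-values of the genotype comparison and the 3 on each side of the threshold. AT1G53035, AT5G35480, AT5G02550 and some unnamed probe sets were chosen for mention with their values in view. Alternatives changed the offset, the filter, the normalization, the threshold, covariates, eBayes options, probe set types and the arrays used.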

Additional observations from a re-analysis of the deposited data

How the results depend on the processing

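The precision is limited by 3 arrays per group and by 75 of 144 members with a gene to name; the causes of the changes below were not tested. The number of members was 249 without the offset, 80 with an offset of 30, 239 after quantile normalization (124 of the 144 among them), 448 after centring each array on its median, 398 at a threshold of 1 and 60 at 1.5; a filter at 50 units gave 126 and no filter 148. The median gene length of the members ran from 1126 to 1424 base pairs over these settings. The median place of replicate 2 in the double mutant was 0.35 after centring on the median.

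Members called by limma for genotype were 0 of 144 in the fit of all 6 arrays, 1 (250476_at) when adjusted for the control 3'/5' ratio, and 3 when the replicate 3 arrays were dropped, each higher in the double mutant. Over all probe sets 5 were called. Limma called 0 without the offset, without the filter, after centring on the median, when adjusted for stage, among samples labelled 5.10 (where 1 pad4 array is assumed to vary like the others) and without probe sets open to cross-hybridisation, 2 after quantile normalization, 36 with the control ratio and 19 when the replicate 3 arrays were dropped. With single arrays left out, calls ran from 0 to 1 among members (1 without pad4 replicate 3) and from 0 to 9 over all probe sets (9 without pad4 replicate 3, 1 without double mutant replicate 1, 0 without any other array). The median log2 fold change of the members, -0.03, was 0.69 with stage as a covariate and also among samples labelled 5.10. With single arrays left out it ran from -0.49 (without double mutant replicate 3) to 0.48 (without pad4 replicate 3), and was 0.31 without double mutant replicate 1, -0.40 without pad4 replicate 1 and -0.21 without pad4 replicate 2. The fold changes of 250476_at, AT3G26960, 266326_at, COR28, AT1G31690, THI2.2 and AT1G07050 kept their sign in all 19 alternatives, but their size moved with single arrays left out. It ran from 2.52 to 3.63 for 250476_at, 0.95 to 3.26 for AT1G07050 and 0.79 to 2.31 for COR28 (lowest without pad4 replicate 1), from -1.30 to -0.41 for 266326_at, -1.33 to -0.43 for AT3G26960 and 0.34 to 1.52 for AT1G31690 (lowest without double mutant replicate 3), and from -1.36 to -0.20 for THI2.2 (lowest without pad4 replicate 1 or 2). The highest value of each of these 7 was that without pad4 replicate 3. Without both replicate 3 arrays the log2 fold change was -0.07 for AT1G47400, -0.92 for BHLH101, -0.20 for AT5G05250 and 0.16 for AT3G56360. The first 2 of these genes lay under 20 units on all arrays of that fit. With the replicate number as a block the standard errors were 0.20, 0.24, 0.21 and 0.22 in the same order. None of the 4 passed in either fit. The smallest adjusted p by limma was that of BHLH101, 0.33 without replicate 3 and 0.35 with the block.

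A replicate block in limma gave 81 calls, of which 70 were higher and 11 lower in the double mutant, and 1 was a member, 250476_at (adjusted p = 9.5e-04). The main fit did not treat same numbers as pairs. The correlation of same-numbered arrays, taken on their distance to the group mean, was 0.83 for replicate 1, 0.00 for replicate 2 and 0.68 for replicate 3. Arrays numbered 1 and those numbered 3 thus moved together, and the main fit counts that shared movement as error.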
